A study of Drosophila melanogaster with 12 samples.

Results

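The cytosolic ribosomal protein genes were followed in adult Drosophila intestines that had lost the mitochondrial pyruvate carrier gene dMPC1. A gene was taken as a member where its name in the tables of both experiments starts with RpL or RpS and continues as a cytosolic name does. The gene sta, which encodes a small subunit protein, was counted with them, and the mitochondrial ribosomal protein genes (mRp) were left out. This rule found 85 of the 9981 genes in the tables, 50 of the large subunit and 35 of the small subunit. Of these, 6 were listed as a further copy or -like paralog of another member (RpS5b, RpS14a, RpS15Ab, RpL34a, RpL24-like and RpLP0-like). All 85 matched a gene of the BDGP6 annotation, 80 by identifier and 5 by symbol, and they are spread over the genome, with 19 on 2R, 19 on 3R, 17 on 2L, 15 on X, 14 on 3L and 1 on chromosome 4.

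The cytosolic ribosome makes nearly all proteins of the cell. Its small subunit reads the mRNA and its large subunit joins the amino acids, and each is built in the nucleolus from ribosomal RNA and a fixed set of proteins. In flies most of these proteins come from a single gene, and losing a copy of many of them delays development and thins the bristles, the Minute phenotype. Growth signals through insulin, TOR and Myc raise ribosome production, and translation of ribosomal protein mRNAs responds to TOR. The intestinal epithelium is renewed by stem cells whose daughters become absorptive enterocytes or hormone-secreting enteroendocrine cells, and dividing and secreting cells both need many ribosomes.

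The first experiment set myo1A > dMPC1-RNAi intestines (3 libraries, replicates 1, 2 and 3) against myo1A > mCherry-RNAi intestines (2 libraries, replicates 1 and 3). Here myo1A-GAL4 drives the RNAi in enterocytes, Tub-GAL80ts, carried by both groups, kept it off until adulthood, and RNAi was on for 7 days in adults aged 4 to 5 days. mCherry is a fluorescent protein that flies do not have. The second experiment set dMPC1 mutants (2 libraries, replicates 1 and 2), transheterozygous for the deletion alleles dMPC1 1 and dMPC1 2 and so lacking the gene in every cell, against precise excision flies (1 library, replicate 2), homozygous for a clean removal of the P element, at 7 to 10 days of adulthood. All groups are labelled w1118, the tissue is the whole intestine with its several cell types, and the labels do not give the sex. The labels number 12 libraries, of which 8 were analysed here. The study describes the RNAi replicates as biological and as pools of intestines, so p-values cover the spread between pools. In whole tissue, fewer cells of a type and less RNA per cell cannot be told apart.

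Libraries held 7362983 to 21918521 reads in genes. The target, Mpc1, stood at 841, 803 and 820 normalized counts in myo1A > dMPC1-RNAi intestines against 3114 and 2936 in myo1A > mCherry-RNAi intestines, and at 5.31 and 13.7 in dMPC1 mutants against 1997 in the precise excision library, in keeping with the label of each library. Among same-group pairs, myo1A > dMPC1-RNAi replicate 1 stood apart from replicates 2 and 3, with a chi-square per degree of freedom of 48.6 and 58.6 against 12.0 between those last ones. Over all genes, 627 rose and 599 fell with RNAi, and 115 rose and 210 fell in the mutants. With libraries scaled to total reads instead of the size factors of the files, these splits were 1726 and 272, and 316 and 217, since that scaling moves the median gene by 0.34 with RNAi and 0.18 in the mutants on the log2 scale.

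Ribosomal protein genes were among the most abundant transcripts of every library. The median member had 11211, 9488 and 10077 normalized counts in the myo1A > dMPC1-RNAi libraries against 14773 and 14306 in the myo1A > mCherry-RNAi libraries. It had 12089 and 12808 in the dMPC1 mutant libraries against 9417 in the precise excision library. Per kilobase of annotated exon, the mean over all 8 libraries was 13524 normalized counts in the median member, with the quartiles at 9561 and 17019. RpL41, which encodes a very short basic peptide, was highest with 53726 per kilobase, ahead of the stalk protein gene RpLP1 with 30551 and of RpL39, a short protein that lines the exit tunnel, with 28492. At the other end were 5 of those 6 copies and paralogs, namely RpL34a with 2230 per kilobase, RpL24-like with 1841, RpLP0-like with 365, RpS15Ab with 272 and RpS5b with 16.4. RpS14b, the less abundant gene of the RpS14 pair, ranked just above them with 2405. Each of these values is a mean over groups that differ, so the order describes these libraries and neighbours in it are not told apart.

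The members moved as a block between libraries, while the balance between the subunits stayed within a narrow range. Their summed normalized counts were 973864, 832751 and 909709 in myo1A > dMPC1-RNAi intestines, against 1306690 and 1272530 in myo1A > mCherry-RNAi intestines. In dMPC1 mutants the sums were 1050800 and 1109460, against 836145 in the precise excision library. So all RNAi libraries lay below both of their controls, and both mutant libraries above theirs. The summed large subunit genes were 1.50 to 1.54 times the summed small subunit genes in all 8 libraries.

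**Figure D1:**
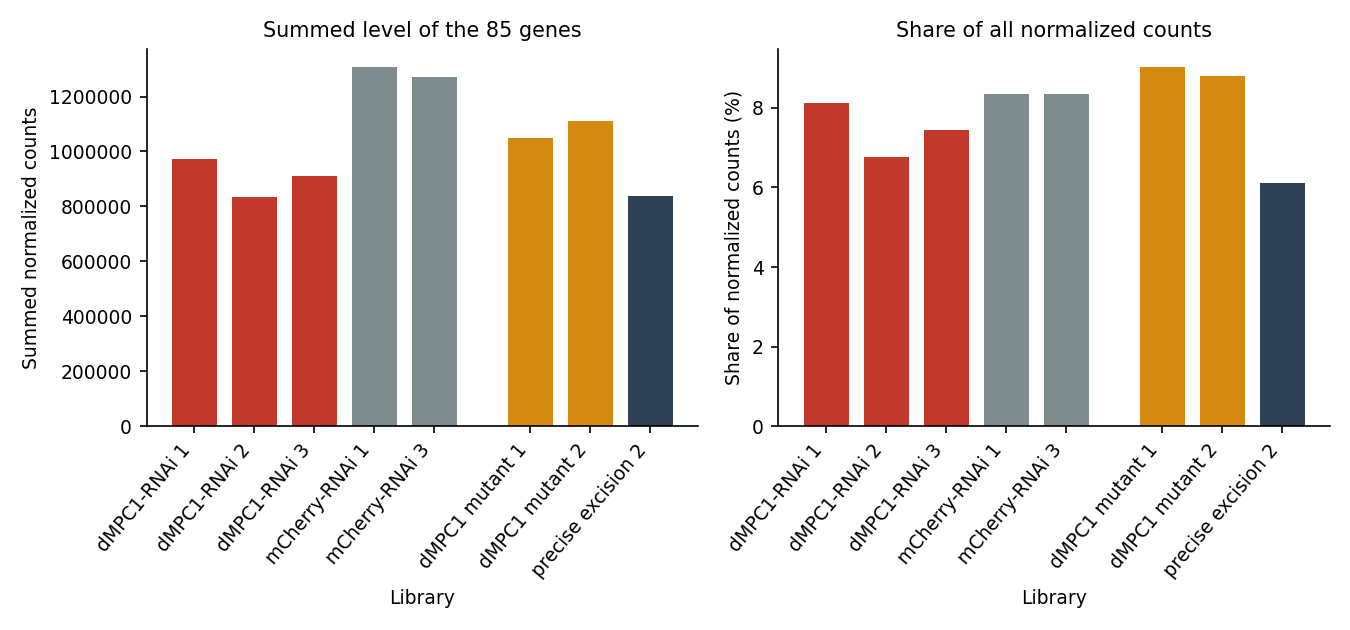
Left, summed normalized counts of the 85 ribosomal protein genes and right, their share of all normalized counts (percent), 1 bar per library. The sums are 832751 to 973864 in the dMPC1-RNAi libraries and 1272530 and 1306690 in the mCherry-RNAi libraries, while the mutant bars stand above the precise excision bar in both panels.

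As a share of all normalized counts, the members took 8.13%, 6.76% and 7.45% in myo1A > dMPC1-RNAi libraries against 8.34% in each myo1A > mCherry-RNAi library, a ratio of group means of 0.892. They took 9.02% and 8.81% in dMPC1 mutants against 6.10% in the precise excision library, a ratio of 1.46. The direction was that of the sums, and the RNAi difference was smaller as a share. The 100 most abundant other genes took 33.6% to 37.2% of the counts in myo1A > dMPC1-RNAi libraries against 42.0% to 42.6% in myo1A > mCherry-RNAi libraries, and 30.4% and 32.8% in mutants against 38.4% in the precise excision library. With those genes left out of the total, the ratios were 0.801 with RNAi and 1.32 in the mutants.

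Whether loss of the carrier in enterocytes alone came with a change in ribosomal protein transcripts was addressed by the RNAi experiment. Nearly all members were lower with dMPC1 RNAi, by a similar and modest amount. The median log2 change was −0.50 (a change of −29.1%), and the quartiles of the members were −0.59 and −0.41. Over the 8921 genes tested, the median was −0.01 and the quartiles −0.33 and 0.31. A gene was called where the limma p, adjusted over all genes by Benjamini-Hochberg, was 0.01 or less and the log2 change was 0.6 or more in size. By this rule 17 members fell and 0 rose, where 6.71% of all genes fell and 7.03% rose. The 17 comprise 11 genes of the large subunit and 6 of the small subunit, with log2 changes of −0.83 to −0.60 and adjusted p of 0.00238 to 0.00903.

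The fold minimum lies inside the range of the members, so the count depends on it more than the direction does. Without a fold minimum, 36 members were lower at an adjusted p of at most 0.01 (8.34% of all genes) and 74 at 0.05 (17.9% of all genes) from limma, and 0 were higher at either (8.18% and 15.6% of all genes). In 81 members every myo1A > dMPC1-RNAi library lay below both myo1A > mCherry-RNAi libraries, which holds for 31.8% of all genes. The number called was 32 without myo1A > dMPC1-RNAi replicate 1, the library that stood apart, 1 without replicate 2, and 0 without replicate 3 or without either control library, while the median stayed between −0.57 and −0.44. Over all genes, 1040 fell without myo1A > dMPC1-RNAi replicate 1, 288 without replicate 2 and 358 without replicate 3, against 599 with all libraries. Without either control library that number was lower still. With libraries scaled to total reads, 0 members were called, the sign turned in 11 of 85 members, and the median was −0.15, which is −0.49 relative to the median gene.

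**Figure D2:**
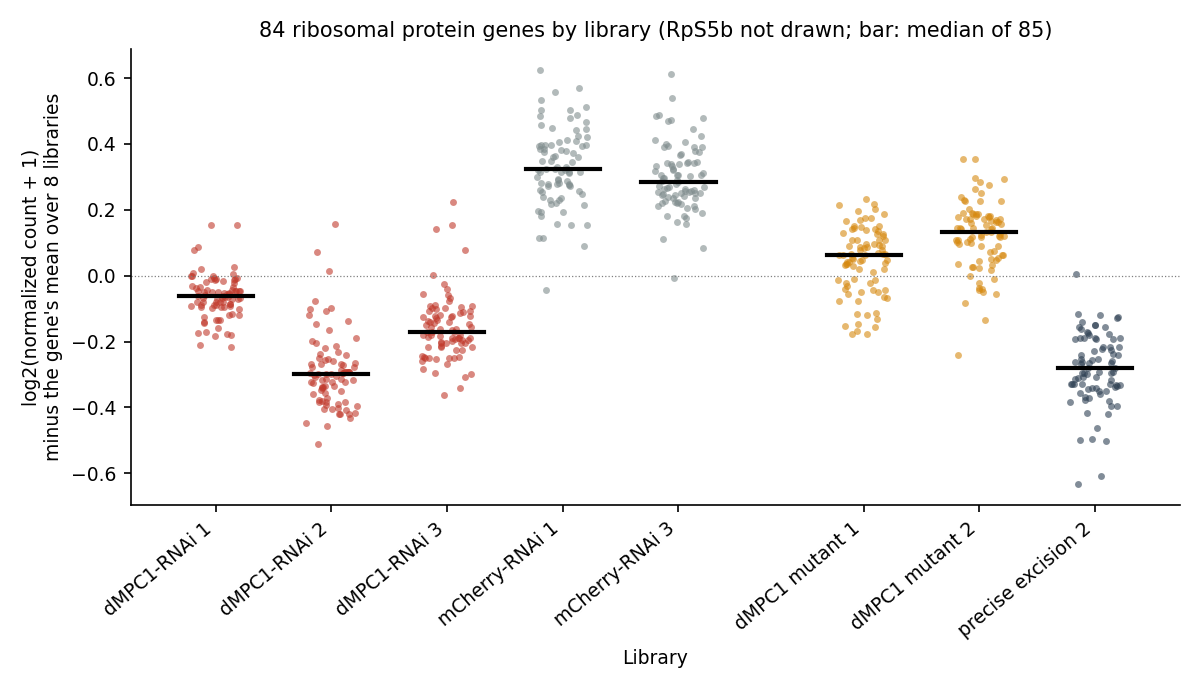
Each point is 1 of 84 ribosomal protein genes in 1 library, as log2(normalized count + 1) minus that gene's mean over the 8 libraries; black bars are the median of all 85, and RpS5b is not drawn. The dMPC1-RNAi points sit mostly below 0 and the mCherry-RNAi points above it, with the mutant libraries above the precise excision library.

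Among the small subunit genes, the largest fall was that of RpS29, which encodes a small zinc-binding protein. It had 12778, 10484 and 12216 normalized counts in myo1A > dMPC1-RNAi intestines, against 21078 and 20910 in myo1A > mCherry-RNAi intestines. The groups lay far apart, and the log2 change was −0.83 (SE 0.11, limma adjusted p = 0.00238). An antisense transcript overlaps its exons, and since the use of strand in counting is not stated, reads of the pair cannot be told apart. RpS29 was the only one of the 17 whose call held without myo1A > dMPC1-RNAi replicate 2.

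RpS3, whose protein sits where mRNA enters the ribosome, had 15189, 13069 and 14496 normalized counts with dMPC1 RNAi against 22789 and 22400 with mCherry RNAi (log2 change −0.67, limma adjusted p = 0.00386). RpS2, known in flies as string of pearls for its ovary phenotype, had 15471, 12842 and 14592 against 22933 and 22259 (log2 change −0.66, limma adjusted p = 0.00517). In both genes replicate 2 was the lowest library and no RNAi library came near a control. The gene sta, named stubarista for its antennal phenotype and the fly counterpart of the laminin receptor protein of the small subunit, had 23059, 18735 and 20815 with dMPC1 RNAi against 33762 and 31792 with mCherry RNAi (log2 change −0.66, limma adjusted p = 0.00730). The remaining small subunit genes called were RpS14a and RpS26, with log2 changes of −0.63 and −0.60. RpS6, the classic substrate of S6 kinase, had 15354, 13001 and 14082 against 21131 and 20789. Its log2 change of −0.57 had an adjusted p of 0.0073 from limma but lay inside the fold minimum, so it was not called.

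In the large subunit, RpL37a and RpL37A differ in name only by case and encode different proteins. RpL37a, on the X chromosome, had 13290, 10609 and 12138 normalized counts in myo1A > dMPC1-RNAi intestines against 19885 and 20625 in myo1A > mCherry-RNAi intestines (log2 change −0.76, limma adjusted p = 0.00415). RpL37A, on 2L, had 7622, 5918 and 7052 against 10914 and 10765 (log2 change −0.67, limma adjusted p = 0.00754). Both pairs of groups were well separated, with replicate 2 lowest.

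RpL22, whose protein carries a long extension at its start in flies, had 4872, 3946 and 4025 normalized counts with dMPC1 RNAi against 7233 and 7042 with mCherry RNAi (log2 change −0.74, limma adjusted p = 0.00390). It shares exon sequence with a long noncoding RNA on its own strand. RpL31, which lies near the mouth of the exit tunnel, had 7529, 5968 and 6716 against 10573 and 10724 (log2 change −0.67, limma adjusted p = 0.00600). RpL7, an RNA-binding protein of the large subunit, had 13020, 11429 and 12009 against 19890 and 18138 (log2 change −0.65, limma adjusted p = 0.00432). In all 3 genes the RNAi libraries lay below both controls. The other large subunit genes called were RpL9, RpL24, RpL8, RpL5 and RpL17, with log2 changes of −0.64 to −0.60, and RpLP0.

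RpLP0 is the base of the acidic stalk, the flexible arm on which RpLP1 and RpLP2 recruit the translation factors that hydrolyse GTP. It had 15549, 13508 and 14363 normalized counts in myo1A > dMPC1-RNAi intestines against 23449 and 22369 in myo1A > mCherry-RNAi intestines, a log2 change of −0.66 (SE 0.10, limma adjusted p = 0.00380). RpLP1 had 20432, 17278 and 18940 against 26815 and 27380 (log2 change −0.52, limma adjusted p = 0.0111). RpLP2 had 12957, 10772 and 12606 against 17556 and 16384 (log2 change −0.49, limma adjusted p = 0.0170). All 3 stalk genes had non-overlapping groups, and only RpLP0 was called.

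RpL40 and RpS27A encode ribosomal proteins made as fusions to ubiquitin, so their mRNAs also supply ubiquitin. RpL40 had 11878, 9893 and 10959 normalized counts with dMPC1 RNAi against 14956 and 15425 with mCherry RNAi (log2 change −0.48, limma adjusted p = 0.0143). RpS27A had 14483, 13391 and 14529 against 20237 and 19563 (log2 change −0.49, limma adjusted p = 0.00764). Both were lower in every RNAi library and neither reached the fold minimum.

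A few members stayed out of the shared shift. The groups overlapped in 4 of them. RpL38, which encodes a small protein of the large subunit, had 6111, 5544 and 6112 normalized counts in myo1A > dMPC1-RNAi intestines against 5843 and 6338 in myo1A > mCherry-RNAi intestines, a log2 change of −0.04 whose sign turned in some fits. RpLP0-like, whose relatives act in assembling the large subunit and leave before it is finished, had 332, 384 and 403 against 334 and 365 (log2 change 0.09). RpS15Ab had 195, 206 and 217 against 219 and 196 (log2 change −0.01), and RpS5b is described with the copies. RpL39 had 7949, 7013 and 8590 against 9042 and 8774, lower in each library, with a log2 change of −0.19 that missed the threshold (limma adjusted p = 0.216). Exons of RpL39 and RpL12 overlap on opposite strands, one of 25 members in which such an overlap leaves the source of some reads uncertain.

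The second experiment asked the same of animals that lack dMPC1 in every cell. There the members lay on the other side, higher in the mutants than in the precise excision library. The median log2 change was 0.38 (a change of 29.9%), with quartiles of 0.31 and 0.42, where the 8794 genes tested had a median of 0.01 and quartiles of −0.23 and 0.24. By the rule above limma called 0 members in either direction, where 1.31% of all genes rose and 2.39% fell. At an unadjusted p under 0.05, 32 members were higher (11.3% of all genes) and 1, RpS5b, was lower (12.4% of all genes). At an adjusted p of at most 0.05, 2 were higher (3.79% of all genes) and 1 was lower (5.58% of all genes). In 82 members both mutant libraries lay above the precise excision library, which with a single control library holds for 41.2% of all genes. RpS5b met the required mean of 10 normalized counts only through the precise excision library, where it was high. Its lower value in the mutants is therefore not read as a result.

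The comparison rests on 1 control library, assumed to vary like the mutants, with 1 residual degree of freedom. With libraries scaled to total reads 4 members were higher by the rule above (3.58% of all genes), and DESeq2 on the recovered reads called 1, RpL37A (1.43% of all genes). Both shares of the members lie near those of all genes.

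**Figure D3:**
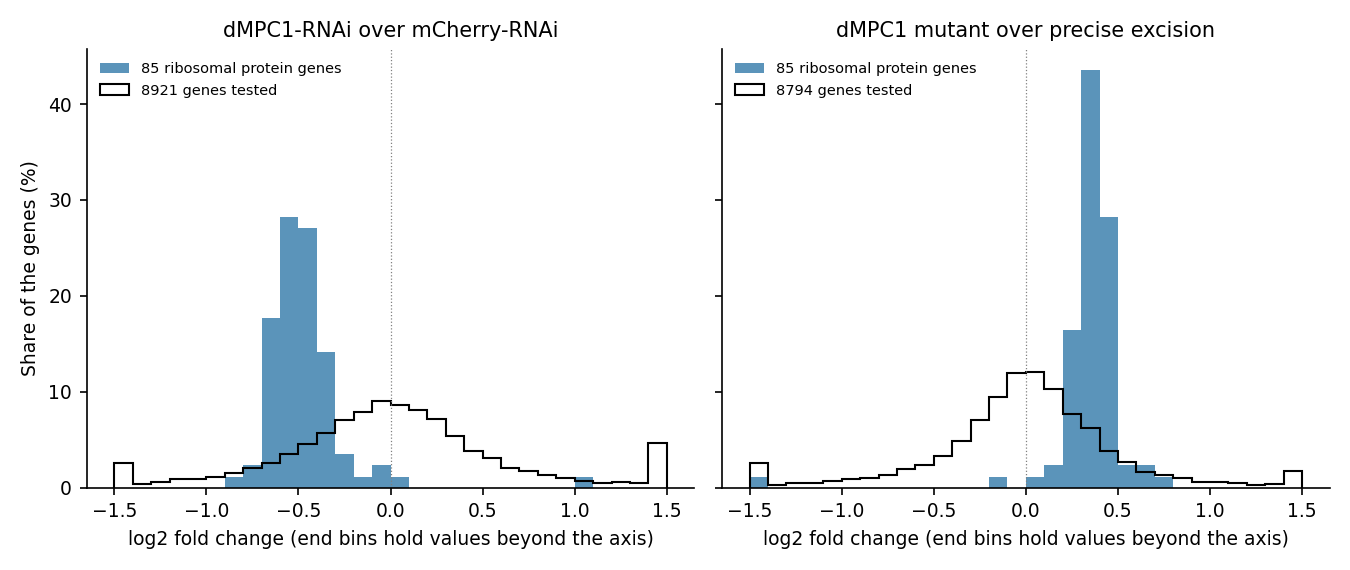
Share of genes (percent) by log2 change in bins of 0.1, for the 85 ribosomal protein genes (filled) and all genes tested (outline), with dMPC1-RNAi over mCherry-RNAi on the left and dMPC1 mutant over precise excision on the right. The filled bars centre near −0.50 on the left and 0.38 on the right, where the outlines centre near 0. Bins at the ends of the axis hold all values beyond it.

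RpL37A had the largest difference, with 8873 and 9960 normalized counts in dMPC1 mutants against 5760 in the precise excision library (log2 change 0.71, limma adjusted p = 0.0353). RpL24-like had 1338 and 1557 against 896 (log2 change 0.69, limma adjusted p = 0.0289). The relatives of RpL24-like bind the immature large subunit and are replaced there by RpL24. RpL27, another large subunit gene, had 13550 and 15118 against 9403 (log2 change 0.61, limma adjusted p = 0.0743). In these 3 genes both mutant libraries lay above the control, and none was called. Exons of all 3 overlap a gene on the opposite strand, so the source of some reads is uncertain.

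RpL39, one of the members least lowered by RNAi, had 8694 and 9506 normalized counts in mutants against 6078 in the precise excision library (log2 change 0.58, limma adjusted p = 0.0628). RpL5, which brings a small ribosomal RNA to the large subunit, had 23115 and 26037 against 16865 (log2 change 0.54, limma adjusted p = 0.144). Of the stalk genes, RpLP0 and RpLP2 lay between the quartiles of the members and RpLP1 lay above the upper quartile. RpLP0 had 17649 and 18536 against 13936, RpLP1 had 26786 and 29470 against 20604, and RpLP2 had 15518 and 15735 against 12315, with log2 changes of 0.38, 0.45 and 0.34.

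RpS6 had 15385 and 17331 normalized counts in mutants against 12219 in the precise excision library, and sta had 20998 and 21868 against 16046, each with a log2 change of 0.42. The ubiquitin fusions had log2 changes of 0.39 (RpL40, 11830 and 12558 against 9331) and 0.34 (RpS27A, 17965 and 18517 against 14411). None of these passed the test, with adjusted p of 0.202 to 0.290 from limma.

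The smallest differences in the mutants were those of RpL23A, a protein of the exit tunnel mouth, RpL34a, and RpL6. RpL23A had 16764 and 17771 normalized counts in mutants against 16718 in the precise excision library (log2 change 0.05), and RpL6 had 16401 and 17550 against 15177 (log2 change 0.16). RpL34a had 1487 and 1256 against 1270, so its libraries overlapped (log2 change 0.11). RpS15Ab had 181 and 166 against 197 and RpS5b 6.38 and 6.84 against 44.1, which makes these 2 the only members with both mutant libraries below the control (38.9% of all genes).

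The difference between the experiments was tested itself, as an interaction in a limma fit of all 8 libraries. In 41 members the mutant change exceeded the RNAi change at an adjusted p of at most 0.01, and in 0 it was the smaller one, where 3.94% and 4.78% of all genes did so. The median of the differences was 0.87 on the log2 scale, and those called ran between 0.81 and 1.37, with adjusted p of 0.00330 to 0.00980. Of the 17 members that fell with RNAi, 16 are among the 41, the exception being RpL17. RpL37A had the largest difference (1.37, limma adjusted p = 0.00392), followed by RpL37a, RpL27 and RpL22 with 1.19 each. RpS29, with the largest fall under RNAi, differed by 1.13 (limma adjusted p = 0.00578).

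Allowing an adjusted p up to 0.05, the number was 78 (10.4% of all genes). At 0.01 it was also 78 without myo1A > dMPC1-RNAi replicate 1, and 2 without replicate 2, 1 without replicate 3, 0 without either mCherry-RNAi library, 4 without mutant replicate 1 and 0 without mutant replicate 2. With libraries scaled to total reads it was 7 (2.52% of all genes), and with DESeq2 on the recovered reads 76 (6.05% of all genes). The number over all genes swung too. At 0.01 it was 885 without myo1A > dMPC1-RNAi replicate 1, 101 without replicate 2 and 135 without replicate 3, against 351 with all libraries. Leaving out either mCherry-RNAi library or either mutant library also gave fewer than 351.

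The controls of the experiments did not share a level. The precise excision library lay below the mean of the myo1A > mCherry-RNAi libraries in 84 of 85 members, with a median difference of −0.58 on the log2 scale. Its levels were close to those of myo1A > dMPC1-RNAi replicate 2, which was above it in 40 members and below it in the rest. The mutant libraries were below myo1A > mCherry-RNAi replicate 1 in most members, 82 for mutant replicate 1 and 74 for mutant replicate 2. These counts were not taken over all genes. Medians of the log2 deviation from each gene's mean over the 8 libraries were compared instead. For the members this median was −0.28 with precise excision, and 0.32 and 0.29 for myo1A > mCherry-RNAi replicates 1 and 3. Over all genes it was 0.0035, 0.0092 and 0.0076 in the same order. Driver, RNAi transgene, age and experiment all differ between these controls and cannot be told apart. Temperature may differ too, since the study moved flies with this driver to a higher temperature in its counts of dividing cells.

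Where a member has a second copy or a -like paralog among the members, the share of the less expressed gene in the pair was taken. In the RpS14 pair this gene is RpS14b, although RpS14a is the one listed as the further copy. RpS14a and RpS14b are neighbouring copies on the X chromosome that encode the same protein, and how reads matching both were counted is not stated. RpS14a had 4437, 4026 and 4324 normalized counts in myo1A > dMPC1-RNAi intestines against 6885 and 6352 in myo1A > mCherry-RNAi intestines, a log2 change of −0.63 (limma adjusted p = 0.00267). RpS14b had 1504, 1332 and 1367 against 1679 and 1608, a log2 change of −0.23 that missed the threshold (limma adjusted p = 0.0820). RpS14b thus made up 25.3%, 24.9% and 24.0% of the pair with dMPC1 RNAi against 19.6% and 20.2% with mCherry RNAi, with no overlap. In the mutants it made up 19.6% and 20.7%, on both sides of the 20.1% of the precise excision library. Their mutant log2 changes were 0.38 for RpS14a and 0.39 for RpS14b.

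**Figure D4:**
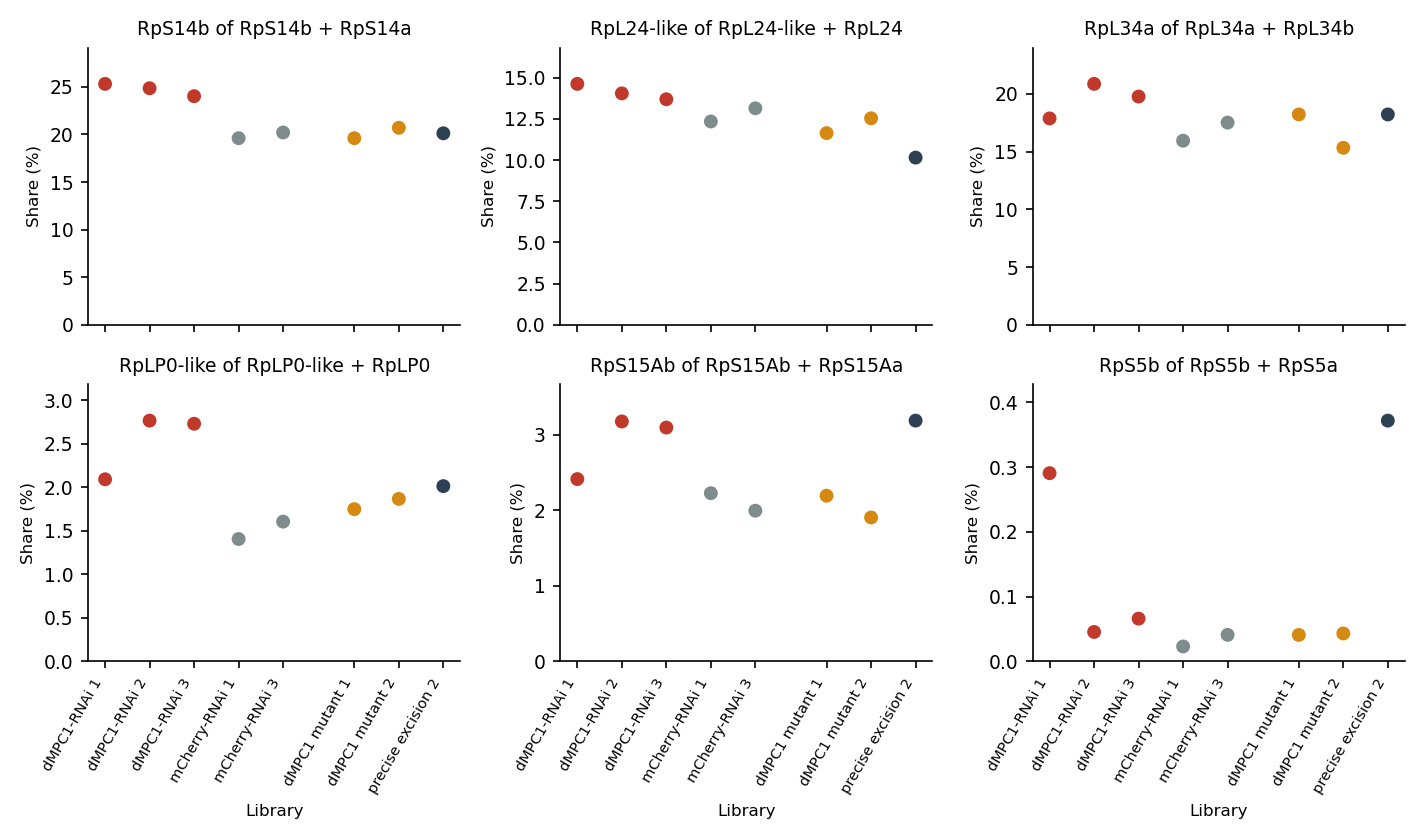
Share of the less expressed gene in the summed normalized counts of a pair of copies or -like paralogs (percent, each panel with its own axis starting at 0), 1 point per library. RpS14b, RpL24-like, RpL34a, RpLP0-like and RpS15Ab take a higher share in every dMPC1-RNAi library than in either mCherry-RNAi library, and RpS5b stands high in dMPC1-RNAi replicate 1 and the precise excision library.

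In the other pairs too, the less expressed gene took a larger share with dMPC1 RNAi. RpLP0-like made up 2.09%, 2.76% and 2.73% of its pair with RpLP0 in myo1A > dMPC1-RNAi libraries against 1.41% and 1.61% in myo1A > mCherry-RNAi libraries. RpL34a made up 17.9%, 20.9% and 19.8% of its pair with RpL34b against 15.9% and 17.5%, RpL34a having 1333, 1285 and 1355 against 1494 and 1599 normalized counts and RpL34b 6123, 4876 and 5499 against 7877 and 7533. RpL24-like made up 14.6%, 14.0% and 13.7% of its pair with RpL24 against 12.3% and 13.1%. These shares follow from the smaller or absent falls of the less expressed gene in each pair and were not tested. In the mutants RpL24-like made up 11.6% and 12.5% against 10.1% in the precise excision library, while RpS15Ab made up 2.19% and 1.90% of its pair with RpS15Aa against 3.19%.

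RpS5b is the copy of RpS5a that flies use mainly in the germline. It had 41.2, 5.76 and 8.99 normalized counts in myo1A > dMPC1-RNAi intestines against 4.38 and 7.28 in myo1A > mCherry-RNAi intestines, and 6.38 and 6.84 in mutants against 44.1 in the precise excision library. The high libraries were a single one of each experiment, and no change was called (limma adjusted p = 0.339 with RNAi and 0.0421 in the mutants). RpS5a had 14115, 12639 and 13574 with dMPC1 RNAi against 18899 and 17693, and 15556 and 15807 in mutants against 11819. Summed over 22 egg chamber genes, counts were 362, 112 and 135 in myo1A > dMPC1-RNAi libraries against 87.7 and 112 in myo1A > mCherry-RNAi libraries, and 76.0 and 109 in mutants against 148 in the precise excision library. Of these 22 genes, 6, 4 and 3 were at 0 in the dMPC1-RNAi libraries, 12 and 9 in the mCherry-RNAi libraries, 10 and 8 in mutants and 3 in the precise excision library. The highest sums fell in the libraries where RpS5b was high, and the part of egg chamber RNA in that was not tested. The part of egg chamber RNA in the summed level of all members was not tested either, and in the myo1A > dMPC1-RNAi libraries both sums had the same order. In the mutant experiment the precise excision library had the higher egg chamber sum and the lower sum of members.

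Other genes of the same process were read from lists chosen from textbook knowledge. Of 40 ribosome biogenesis genes, limma called 0 in either direction with RNAi and 0 in the mutants, with median log2 changes of −0.17 and 0.14. The one with the smallest p under RNAi was Ns3, a GTPase of the nucleostemin family. It had 363, 398 and 361 normalized counts in myo1A > dMPC1-RNAi intestines against 494 and 488 in myo1A > mCherry-RNAi intestines (log2 change −0.39, limma adjusted p = 0.0190). Nop17l had the clearest difference between the experiments in this list (0.89, limma adjusted p = 0.00538), with 2217 and 2316 in mutants against 1426 in the precise excision library. The shift of the median biogenesis gene was smaller than that of the median ribosomal protein gene in both experiments, a difference that was not tested.

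Of 32 translation factor genes, 2 fell with RNAi (Tctp and Rack1, where 6.71% of all genes fell) and 0 rose, and 0 were called in the mutants. That share is near the share of all genes. Tctp, which encodes the translationally controlled tumor protein, had 8714, 7574 and 7848 normalized counts with dMPC1 RNAi against 13704 and 13600 with mCherry RNAi (log2 change −0.77, limma adjusted p = 0.00183). Rack1, a scaffold protein that sits on the small subunit, had 19389, 16270 and 17764 against 27828 and 26668 (log2 change −0.62, limma adjusted p = 0.00660). Each had groups that did not overlap. The elongation factor subunit gene Ef1beta had a log2 change of −0.58 with RNAi, just inside the fold minimum, and 0.40 in the mutants, and it differed between the experiments (0.98, limma adjusted p = 0.00488), as did Tctp (1.20, limma adjusted p = 0.00328).

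Of 20 genes of insulin, TOR and Myc growth control, 5 fell with RNAi (6.71% of all genes), 0 rose and 15 were not called, and 0 were called in the mutants. Thor, the translation inhibitor of the TOR pathway (4E-BP), had 7018, 4686 and 5071 normalized counts in myo1A > dMPC1-RNAi intestines against 10837 and 12148 in myo1A > mCherry-RNAi intestines (log2 change −1.06, limma adjusted p = 0.00559). S6k, the kinase of RpS6, had 2739, 2729 and 2718 against 4327 and 4599 (log2 change −0.71, limma adjusted p = 0.00106). The other genes that fell were foxo, a transcription factor held back by insulin signalling (−0.84), Pdk1, a kinase upstream of S6 kinase (−0.82), and slif, an amino acid transporter gene (−0.81). These genes include both promoters and brakes of growth. Myc itself, dm in the files, had 1212, 1219 and 1016 against 1562 and 1333 (log2 change −0.33, limma adjusted p = 0.0720). At a limma adjusted p of at most 0.05 without a fold minimum, 7 were lower (17.9% of all genes) and 3 higher (15.6% of all genes). The higher ones were InR, Akt1 and gig, with log2 changes of 0.55, 0.41 and 0.37. Between the experiments 1 of the 20 genes differed, Thor, with the mutant change higher by 1.64 (limma adjusted p = 0.00611, 3.94% of all genes).

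Cell type markers moved in the same comparisons. Summed counts of 9 enterocyte genes were 464869 to 490745 in myo1A > dMPC1-RNAi libraries against 753855 and 800039 in myo1A > mCherry-RNAi libraries, and 492898 and 629485 in mutants against 634908 in the precise excision library, with 3 of the 9 called lower under RNAi and 2 called higher in the mutants. Sums of 13 genes of cycling cells were 2367 to 3244 with dMPC1 RNAi against 935 and 972 with mCherry RNAi, with 10 of the 13 called higher, and 1616 and 979 in mutants against 2143 in the precise excision library. Sums of 8 enteroendocrine genes were 5674 to 6222 with dMPC1 RNAi against 4337 and 4401, and 2901 and 3895 in mutants against 3329. So between the groups of each experiment the one with the lower ribosomal protein sums had the higher cycling sums, but among the myo1A > dMPC1-RNAi libraries the order was the reverse, replicate 1 being highest and replicate 2 lowest in both. Between groups, the enterocyte sums were lower with RNAi, as the members were, and were not above the control in the mutants. Between groups, the sums of 5 Malpighian tubule genes, of the excretory tubules attached to the gut, moved as the members did in both experiments. They were 13495, 15776 and 13772 with dMPC1 RNAi against 23229 and 20903 with mCherry RNAi, with 1 of the 5 called lower. Among the myo1A > dMPC1-RNAi libraries the tubule sum was highest in replicate 2, where the members were lowest. In mutants the tubule sums were 24525 and 28487 against 18790 in the precise excision library. The single genes did not all follow there, with log2 changes of −0.63 to 1.35 and quartiles of −0.29 and 0.75. Marker sums of 3 other tissues around the gut were higher in the controls of both experiments. For 10 muscle genes they were 13525 and 13775 in mutants against 22366 in the precise excision library, and for 4 hemocyte genes 308 and 419 against 967. For 2 fat body genes they were 1565 and 1815 against 10102, but the genes went opposite ways, with log2 changes of −2.64 and 2.85 in the mutants. With dMPC1 RNAi the muscle sums were 13484, 14124 and 14036 against 16641 and 18222 with mCherry RNAi. The hemocyte sums were 199, 200 and 168 against 202 and 347, and the fat body sums 3082, 1821 and 1584 against 6189 and 4749. These sums were thus lower with RNAi, as the members were, and lower in the mutants, where the members were higher. The part of these differences in the ribosomal protein values was not tested.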

How the data were processed

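RNA of whole intestines was sequenced as short single reads and aligned to the dm3 assembly; Novoalign and DESeq are named in the submitters' processing notes, and versions, annotation, counting options and strand were not given in the sources used here. Each deposited signal is a gene's count in a library after the authors' division by that library's size factor. Dividing by the smallest step gave whole reads for 100% of the values (within 0.001 of a read), 7362983 to 21918521 per library. Size factors recomputed over all 8 libraries were 0.975 to 0.980 times those of the files, so 1 scale covers both tables. Fold changes and adjusted p-values of the authors stand in the same tables and were not used.

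limma 3.58.1 (R 4.3.3, mean-variance trend) was fitted on log2(normalized count + 1), which understates changes of low genes, with no covariate, keeping genes whose mean normalized count in the compared libraries was 10 or more. All 85 members passed this filter in each comparison with all its libraries, RpS5b only through its high libraries. With myo1A > dMPC1-RNAi replicate 1 left out, 84 members passed in the RNAi comparison. Genes were called at an adjusted p of at most 0.01 over all genes and a log2 change of at least 0.6 in size, thresholds of the study's methods, and differences between experiments at an adjusted p of at most 0.01. Alternatives were other pseudocounts, filters and scalings, edgeR 4.0.16 and DESeq2 1.42.0 on the recovered reads, a fit of all libraries, a replicate block and leaving out each library. The fit was tested on simulated data.

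Conditions come from the labels. The labels number 3 libraries per group, the study's methods give 4 replicates of pooled intestines per RNAi genotype, and 4 of the 12 labelled libraries were not analysed here. Further paralogs that the tables do not list were not analysed here. Members, gene lists and tests were chosen with earlier results of these data known. Named with every library's value were up to 10 called members per comparison and the 5 highest and 5 lowest members in each. Copies and -like paralogs, stalk genes, RpS6, sta and the ubiquitin fusions were named too. From other lists, up to 4 genes by smallest p were named. Of these, the text gives the ones its statements turn on. RpL8, RpL9, RpL15, RpL17, RpL41, RpS3A, RpS18, RpS23, RpS26, RpS27, foxo and dm were added after their values were seen.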

Additional observations from a re-analysis of the deposited data

Results flagged for a closer look

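In 41 ribosomal protein genes the change in dMPC1 mutants differed from the change in myo1A > dMPC1-RNAi intestines by limma's interaction test (adjusted p of at most 0.01 over all genes), with the mutant change the higher one each time. RpL37A differed most, by 1.37 on the log2 scale. RpL22, RpL27 and RpL37a differed by 1.19 each, RpL24-like and RpL5 by 1.14, and RpS29 by 1.13. The differences of RpL26 and sta were 1.07, those of RpL31, RpLP0, RpL24 and RpS3 were 1.05, 1.04, 1.03 and 1.03, and that of RpS14a was 1.02. RpS6, RpS10b, RpLP1, RpL7, RpS2 and RpS15Aa had 0.99, 0.98, 0.97, 0.95, 0.95 and 0.94, and RpS5a and RpS27A had 0.85 and 0.83. The differences set 3 RNAi libraries and 2 mutant libraries against their own controls, 2 and 1 libraries, and the part of the lower precise excision level in them was not tested.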

How the results depend on the processing

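The number of members called with RNAi was 17, and it was 8 with no filter on low genes, 0 with total-read scaling, 36 at an adjusted p of at most 0.01 and 74 at 0.05 without a fold minimum, and 0 to 32 with a library left out. In the mutants it was 0, against 4 with total-read scaling, 1 with DESeq2 and 3 at 0.05. For the difference between experiments it was 41, against 9 with no filter, 7 with total-read scaling, 76 with DESeq2, 78 at 0.05 and 0 to 78 with a library left out. The edgeR test on recovered reads gave 12, 0 and 29. The median log2 change with total-read scaling was −0.15 with RNAi and 0.56 in the mutants, which is −0.49 and 0.37 relative to the median gene, and other settings kept it between −0.57 and −0.44 and between 0.34 and 0.41. Of the biogenesis and translation genes 2 were called with RNAi, against 1 with no filter, with total-read scaling (there a higher one), with TMM scaling without the members and with edgeR, 16 at 0.05 and 0 to 4 with a library left out. In the mutants 0 were called, against 2 with total-read scaling and 2 at 0.05. The share ratios of 0.892 and 1.46 were 0.801 and 1.32 without the 100 most abundant other genes, and 1.41 in the mutants without digestive enzyme genes. Over all 85 members, total-read scaling turned the sign of the RNAi change in 11, whose change had been up to 0.34 in size (RpL15, RpL41, RpS3A, RpS18, RpS23 and RpS27 besides the following). There the RNAi change was 0.12 for RpL34a, 0.30 for RpL38, 0.16 for RpL39, 0.11 for RpS14b and 0.33 for RpS15Ab, and the difference between experiments was −0.039 for RpLP0-like. The RNAi change of RpS15Ab was also 0.013 with TMM scaling without the members and 0.015 with edgeR. With a library left out, the RNAi change of RpS15Ab ran between −0.091 and 0.074 and that of RpL38 between −0.0993 and 0.018, and the mutant change of RpL34a between −0.016 and 0.23. The causes were not tested beyond the construction of each setting.

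Replicate numbers are shared by 2 libraries of each RNAi group, and their deviations correlated at −0.23 and −0.16, so the numbers were not taken to pair libraries. With the replicate block, 1 member and 1 biogenesis or translation gene were called and RpL38 had a log2 change of 0.0062. No paired analysis was possible because the mutant and precise excision libraries share fewer than 2 numbers. The mutant comparison could not be run without its only control library. Among the named members, these settings together gave 87 lost and 6 gained calls with RNAi, 0 lost and 5 gained in the mutants, and 159 lost and 22 gained in the difference between experiments. RpS5b had 4 reads in its lowest library, and every other member had at least 97 in each.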
